A study of Homo sapiens with 12 samples.

Results

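Long intergenic non-coding RNAs with a LINC number were followed in the human melanoma line SK-MEL-2 under 4 treatments. Of 14582 genes named on the arrays 453 carry such a symbol, and 100 of them reached a mean intensity of at least 32 in at least 1 treatment group, with 1 probe set per gene. Treatment lasted 24 hours, and there were 3 arrays in each group. DTE cells received 100 nM dabrafenib, 10 nM trametinib and 1 µM entinostat together, DT cells the same doses of the first pair, E cells 1 µM entinostat, and DMSO cells the vehicle. Dabrafenib is a RAF kinase inhibitor, trametinib blocks the kinases MEK1 and MEK2, and entinostat blocks histone deacetylases of class I. Titles name biological replicates where the design text speaks of technical ones, so the p-values here measure the spread between these arrays and nothing wider. All groups came from 1 cell line. Of the 10 melanocytic marker genes looked up, 9 were measured, and all 9 lay above the estimated background in all 4 groups, S100B, SOX10, PMEL, TYR and MITF among them. So did 3 of 4 measured epithelial markers (KRT14, KRT8 and EPCAM), the leukocyte marker LYZ and the endothelial marker VWF, but neither fibroblast marker. Summed over a list, group means ran from 2577 to 5619 for melanocytic, 82.2 to 155 for epithelial, 27.0 to 63.9 for leukocyte, 12.4 to 18.3 for endothelial and 10.3 to 18.2 for fibroblast markers, and their part in the results was not tested.

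Long intergenic non-coding RNAs are transcribed by RNA polymerase II from regions between protein-coding genes and are usually spliced and polyadenylated, but they carry no long open reading frame. Most are made in few copies per cell and in few cell types, and some act in the nucleus on nearby genes while others bind proteins or microRNAs in the cytoplasm. For most LINC numbers no function has been established. An intensity depends on the probes as well as on the RNA, so levels of different genes are not ranked as RNA amounts here, and in bulk samples fewer cells with an RNA and less RNA per cell cannot be told apart.

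The promoters below are those of 6 genes with large differences between treatments, chosen after their values were seen among those the RefSeq promoter table holds. It holds 71 of the 100 genes. Each runs from 250 bases before to 50 bases after the annotated start, 5′ to 3′ on the gene's strand, in build GRCh38.p14. Capitals mark matches on either strand to motifs of factors that act under the pathways inhibited or in melanocytes, and 5 were searched. The first was TGANTCA, the AP-1 motif. The second was TGACGTCA, the full cyclic AMP response element (CRE), and the third its short form TGACG, which the full one also holds. The fourth was CACGTG, an E-box that MITF and other factors bind. The fifth was CCGGAAGT, bound by ETS factors. In the LINC00685 sequence a short CRE overlaps an E-box. LINC02946 (chr2:105610510-105610809, minus strand), LINC01531 (chr19:35405357-35405656, plus strand) and LINC00473 (chr6:165987990-165988289, minus strand) are shown because they were lowest in DTE in deposited values, as were 84 of the 100 genes. After quantile normalization LINC01531 was lowest in E (67.5 against 79.6 in DTE) and LINC00473 in DT (25.3 against 25.9 in DTE). LINC00472 (chr6:71420696-71420995, minus strand), LINC00312 (chr3:8571532-8571831, plus strand) and LINC00685 (chrX:318895-319194, plus strand) are shown because they were higher in E than in DMSO.
LINC02946: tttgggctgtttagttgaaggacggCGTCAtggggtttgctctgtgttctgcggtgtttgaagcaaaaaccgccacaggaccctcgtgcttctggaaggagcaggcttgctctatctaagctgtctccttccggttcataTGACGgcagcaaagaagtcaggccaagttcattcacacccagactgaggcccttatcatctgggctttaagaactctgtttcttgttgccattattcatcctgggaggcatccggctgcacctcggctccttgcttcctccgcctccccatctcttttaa
LINC01531: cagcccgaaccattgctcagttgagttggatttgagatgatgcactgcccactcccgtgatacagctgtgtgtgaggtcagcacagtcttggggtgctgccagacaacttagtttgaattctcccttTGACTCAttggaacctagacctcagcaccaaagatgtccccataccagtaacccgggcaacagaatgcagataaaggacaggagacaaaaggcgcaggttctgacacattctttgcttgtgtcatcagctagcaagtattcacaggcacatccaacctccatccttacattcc
LINC00473: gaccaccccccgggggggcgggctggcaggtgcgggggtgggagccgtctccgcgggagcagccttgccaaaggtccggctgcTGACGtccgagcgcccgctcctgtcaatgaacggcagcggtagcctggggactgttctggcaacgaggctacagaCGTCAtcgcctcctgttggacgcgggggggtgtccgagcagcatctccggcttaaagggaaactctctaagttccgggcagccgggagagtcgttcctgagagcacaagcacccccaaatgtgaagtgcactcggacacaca
LINC00472: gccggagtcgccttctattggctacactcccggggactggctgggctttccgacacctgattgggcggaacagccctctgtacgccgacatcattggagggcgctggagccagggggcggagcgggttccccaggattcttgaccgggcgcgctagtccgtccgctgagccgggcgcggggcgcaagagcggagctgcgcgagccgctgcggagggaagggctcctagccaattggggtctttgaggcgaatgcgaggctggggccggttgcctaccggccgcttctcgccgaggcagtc
LINC00312: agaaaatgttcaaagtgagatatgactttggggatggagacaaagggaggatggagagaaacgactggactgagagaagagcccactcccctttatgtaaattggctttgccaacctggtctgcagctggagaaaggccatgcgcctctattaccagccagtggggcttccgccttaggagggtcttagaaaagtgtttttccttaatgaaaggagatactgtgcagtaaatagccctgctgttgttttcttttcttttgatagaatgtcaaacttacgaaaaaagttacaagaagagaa
LINC00685: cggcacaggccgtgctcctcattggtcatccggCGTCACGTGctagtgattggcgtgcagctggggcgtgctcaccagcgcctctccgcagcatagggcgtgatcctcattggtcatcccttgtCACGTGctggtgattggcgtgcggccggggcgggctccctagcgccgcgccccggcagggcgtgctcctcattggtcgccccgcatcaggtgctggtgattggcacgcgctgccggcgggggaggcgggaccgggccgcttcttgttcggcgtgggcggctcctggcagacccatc

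LINC01531 held the AP-1 letters once, at position -123 from its start, and LINC00685 held CACGTG at -214 and -126 and a short CRE at -217. LINC00473, which CREB activates in lung cancer cells, held a short CRE at -167 and another at -92, and LINC02946 held them at -225 and -110, while LINC00472 and LINC00312 held none of the 5 motifs. Among the promoters of the 71 genes 11.3% held the AP-1 letters, 2.82% the full CRE, 28.2% the short CRE, 8.45% the E-box and 7.04% the ETS letters. Of all 27305 promoters that RefSeq gave here, these shares were 7.76%, 1.98%, 25.0%, 7.44% and 4.44%, in the same order. Of the 1578 LINC genes that RefSeq gave, 13.8% held the AP-1 letters, a larger share than among the 71, while 1.01%, 17.0%, 5.01% and 1.2% held the other 4 motifs, smaller shares than among the 71. These differences were not tested. The 71 promoters had a median of 12 CpG dinucleotides and a GC content of 55.3%, against 4 and 47.7% for the 1578 LINC genes in the table and 22 and 62.7% for 15843 protein-coding genes.

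The overall level of the arrays varied between groups, which bears on every difference below. Among genes with a mean of at least 32 over the 12 arrays, the median intensity was 48.6 to 54.6 on the DTE arrays, 76.8 to 87.8 in DT, 101 to 131 in E and 91.2 to 115 in DMSO. The sources used here do not say how the arrays were scaled. Each difference is therefore given in deposited values, as a log2 difference with its standard error (SE) from limma, followed by the same difference after quantile normalization, called the quantile value. A gene is said to have risen or fallen where its deposited values gave an adjusted p under 0.05. Because the genes were chosen by their highest group mean, tests are given only for the 82 whose mean over all 12 arrays was itself at least 32. That filter reads no group labels, but 10 of the 82 pass it through their brightest group, since their other 3 groups average under 32. They are LINC00847, LINC01252, LINC00999, LINC00648, LINC01134, LINC01096, LINC00896, LINC00207, LINC00602 and LINC01260. Their differences are described with no test. For each comparison, the count of rises and falls in deposited values over the 82 is followed by that over the other 72. This check was chosen after seeing the data. Counts in quantile values, with other centrings, with arrays left out or with a replicate block are over the 82, these 10 included. A further 18 genes entered through a group mean only and are described by their values. Within the 82 genes, the highest group mean was a median of 2.09 times the lowest one, against 2.33 times among all 7749 genes with such a mean. The comparisons with DMSO share the DMSO arrays, and those of DTE share the DTE arrays.

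**Figure D1:**
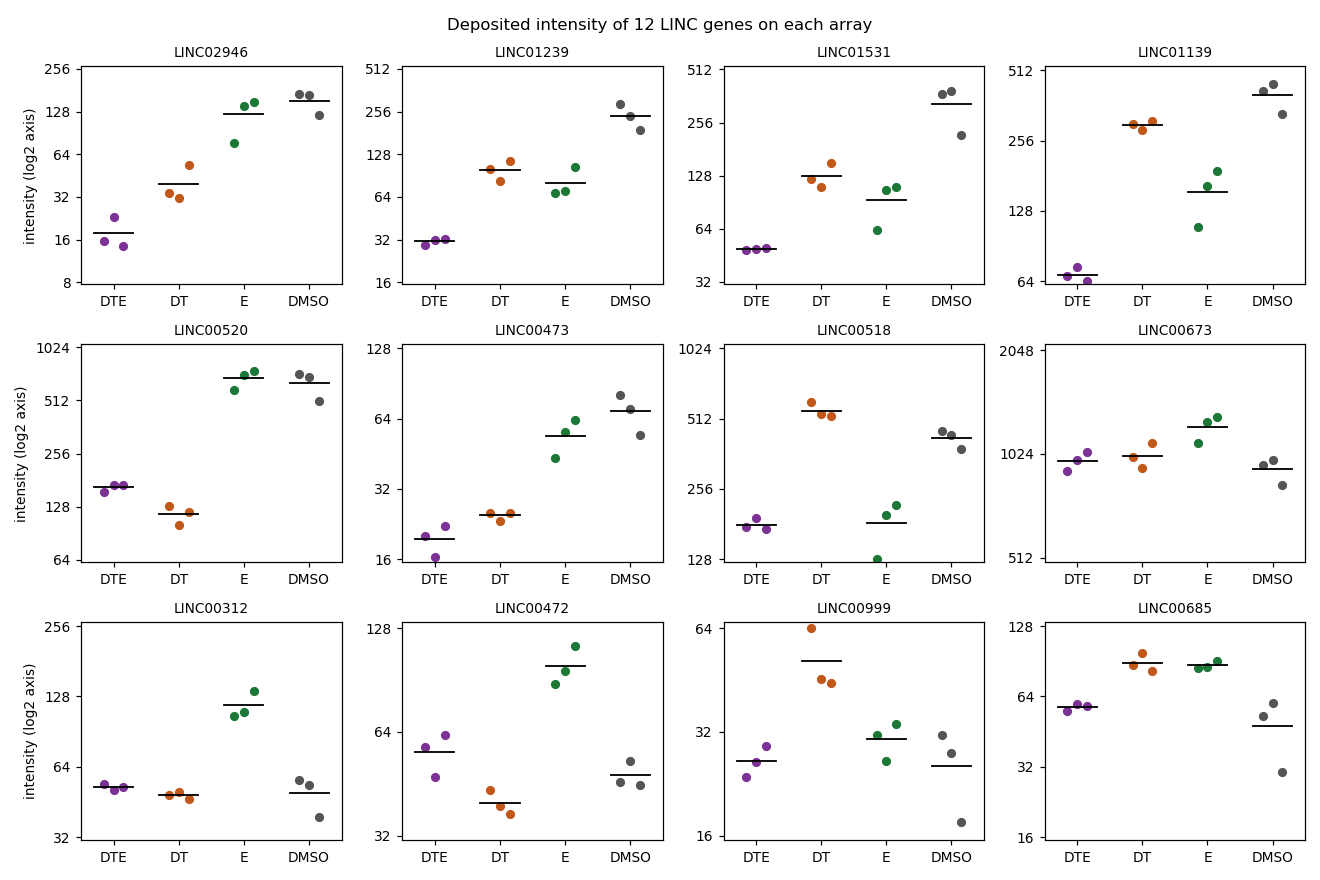
Deposited intensity on each array (points, log2 axis) and group mean (bar) of 12 LINC genes in DTE, DT, E and DMSO, 3 arrays each. LINC02946, LINC01239, LINC01531 and LINC01139 lay lowest in DTE with no overlap with DMSO, LINC00520 and LINC00473 were low with dabrafenib plus trametinib, LINC00518 was low with entinostat, and LINC00312 and LINC00472 were highest in E. After quantile normalization LINC01531 and LINC01139 had group means of 67.5 and 112 in E, below those of 79.6 and 114 in DTE.

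With dabrafenib plus trametinib more LINC genes fell than rose in deposited values, and more rose than fell in quantile values. The largest differences were falls on both scales. LINC00520, known in endothelial cells as LEENE, where it promotes expression of the nitric oxide synthase gene, had intensities of 129, 101 and 119.9 in DT, against 721, 696 and 511 in DMSO. The groups lay far apart, and it fell 5.47-fold (-2.45 ± 0.15, adjusted p = 5.4e-11, quantile -2.09). LINC02946 measured 34.1, 31.5 and 53.7 in DT and 169, 167 and 121 in DMSO, without overlap, and fell (-1.96 ± 0.23, adjusted p = 5.9e-07, quantile -1.60). LINC00473 measured 25.2, 23.4 and 25.2 in DT and 80.8, 70.6 and 54.5 in DMSO, and fell as well (-1.46 ± 0.16, adjusted p = 3.2e-07, quantile -1.18). The DT arrays of this gene were close together and all below the dimmest DMSO array. Other falls were those of LINC01531 (-1.31 ± 0.21, quantile -0.97), LINC01239 (-1.26 ± 0.17, quantile -0.89), LINC00622 (-1.17 ± 0.14, quantile -0.89) and LINC00997 (-0.78 ± 0.16, quantile -0.46). LINC00622, whose probe set was the brightest of the 100, had 848 ± 77 in DT and 1902 ± 109 in DMSO (mean ± SD, n = 3 each).

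LINC00685 rose. It measured 87.4, 98.1 and 82.5 in DT and 53, 59.8 and 30.3 in DMSO (0.96 ± 0.18, adjusted p = 2.1e-04, quantile 1.18), with the third DMSO array well below the other two. LINC00174 (0.62 ± 0.18, quantile 0.83), LINC00205 (0.62 ± 0.15, quantile 0.90), LINC00910 (0.56 ± 0.16, quantile 0.87), LINC00882 (0.46 ± 0.15, quantile 0.59) and LINC02035 (0.42 ± 0.15, quantile 0.67) rose too. LINC00999 and LINC00648, which pass the filter through DT, carry no test. LINC00999 had 63.9, 45.7 and 44.2 in DT and 31.3, 27.8 and 17.5 in DMSO, and LINC00648 54.6, 50.0 and 46 in DT and 41, 27.1 and 17.7 in DMSO. Of the tested rises 4 were lost when single arrays were left out. Without DMSO replicate 3 the differences of LINC00174, LINC00910, LINC00882 and LINC02035 were 0.42, 0.39, 0.29 and 0.32 and no longer passed the test (adjusted p of 0.083, 0.076, 0.16 and 0.12). LINC00174 was also lost without DT replicate 3 (0.52, adjusted p = 0.063). LINC00882 was lost without DT replicate 1 (0.41, adjusted p = 0.10) or DT replicate 2 (0.48, adjusted p = 0.054). LINC02035 was lost without DT replicate 1 (0.32, adjusted p = 0.17), DT replicate 3 (0.41, adjusted p = 0.079) or DMSO replicate 2 (0.43, adjusted p = 0.074).

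In all, 9 of the 82 LINC genes rose and 19 fell in DT against DMSO, where 27.8% of all 14582 genes were called in either direction. Among the 72 the counts were 7 and 18. Of the LINC genes 11.0% rose and 23.2% fell, against 5.46% and 38.8% of the 7749 genes with a mean of at least 32, a difference that was not tested. It was not particular to LINC genes. Of 249 other long non-coding RNA genes with such a mean, 12.45% rose and 28.5% fell. After quantile normalization 25 rose and 12 fell, where 29.6% of all genes were called and 22.1% of the 7749 rose and 23.6% fell, and all 12 had also fallen in deposited values. The median difference of the 82 was -0.13 in deposited and 0.15 in quantile values, against -0.30 and 0.0022 for the 7749 genes. For the 249 other long non-coding RNA genes it was -0.14 and 0.12, and in quantile values 32.1% of them rose and 16.9% fell. Only 4 rises were called without DMSO replicate 3.

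With entinostat alone more LINC genes rose than fell in deposited values, and more fell than rose in quantile values. The largest differences were falls on both scales. LINC01531 had 63.3, 106 and 111 in E and 371, 388 and 217 in DMSO, and fell 3.48-fold (-1.80 ± 0.21, adjusted p = 4.0e-07, quantile -1.91). LINC01239 had 68.3, 70.3 and 104 in E and 289, 238 and 191 in DMSO (-1.57 ± 0.17, adjusted p = 2.3e-07, quantile -1.67). In both genes every E array lay below every DMSO array. LINC01139, also called LINK-A, which binds and activates kinases in breast cancer cells, had 109, 164 and 189 in E and 419, 448 and 332 in DMSO (-1.40 ± 0.17, adjusted p = 8.0e-07, quantile -1.52). LINC00518, one of a pair of RNAs measured in skin patch tests for melanoma, had 129, 199 and 219 in E and 452, 435 and 379 in DMSO (-1.24 ± 0.16, adjusted p = 2.8e-06, quantile -1.36). LINC02525 (-0.69 ± 0.15, quantile -0.79), LINC01004 (-0.61 ± 0.19, quantile -0.71) and LINC01098 (-0.54 ± 0.15, quantile -0.72) fell by less. LINC00847, which passes the filter through DMSO, had 14.2, 17.7 and 20.0 in DTE, 41, 28.2 and 28.9 in DT, 22.6, 34.1 and 32.8 in E and 67.7, 71 and 46.1 in DMSO. The fall of LINC01004 was not called without E replicate 1 (-0.44, adjusted p = 0.093), E replicate 2 (-0.59, adjusted p = 0.056), DMSO replicate 1 (-0.41, adjusted p = 0.13) or DMSO replicate 2 (-0.58, adjusted p = 0.06), and that of LINC01098 without DMSO replicate 1 (-0.40, adjusted p = 0.076).

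Of the 20 rises 7 were of at least 2-fold, where 416 of the 7749 genes with a mean of at least 32 rose as much. LINC01252, which carries no test here, is counted among the 7. LINC00312, a transcript first described in nasopharyngeal carcinoma, had 106, 110.3 and 135 in E and 56.4, 53.5 and 39 in DMSO (1.25 ± 0.15, adjusted p = 6.5e-07, quantile 1.00), with no overlap. LINC00472 had 88.3, 96 and 114 in E and 45.9, 52.7 and 45 in DMSO (1.05 ± 0.14, adjusted p = 6.0e-06, quantile 0.78), again without overlap. LINC01220 (1.07 ± 0.15, quantile 0.81), LINC00882 (1.02 ± 0.15, quantile 0.66), LINC00548 (1.01 ± 0.16, quantile 0.81), LINC02210 (1.01 ± 0.17, quantile 0.80) and LINC00685 (0.93 ± 0.18, quantile 0.67) rose too, each without overlap between the groups. LINC01252, which passes the filter through E, had 48, 55.5 and 54 in E and 28.4, 20.2 and 23 in DMSO.

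Of the 82 LINC genes 20 rose and 9 fell in E against DMSO, where 25.6% of all genes were called. Among the 72 the counts were 18 and 8. Of the LINC genes 24.4% rose and 11.0% fell, against 23% and 7.63% of the 7749 genes. The shares were 22.9% and 12.05% for the 249 other long non-coding RNA genes. After quantile normalization 15 rose and 21 fell, where 31.5% of all genes were called and 21.1% of the 7749 rose and 24.8% fell, and 14 rises and 9 falls were called alike in both. The median difference was 0.16 in deposited and -0.03 in quantile values, against 0.10 and -0.05 for the 7749 genes. Leaving out E replicate 3 or DMSO replicate 3 left 13 rises, and without DMSO replicate 3 there were 14 falls.

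With all 3 agents most LINC genes were dimmer than in DMSO, as were most genes on these arrays, and 10 of the 82 had a deposited difference above 0. LINC02946 had 15.7, 23.2 and 14.5 in DTE and 169, 167 and 121 in DMSO, an 8.66-fold fall (-3.11 ± 0.23, adjusted p = 1.0e-10, quantile -2.44). LINC01239 had 29.2, 31.8 and 32.5 in DTE and 289, 238 and 191 in DMSO (-2.92 ± 0.17, adjusted p = 5.2e-12, quantile -1.98). LINC01531 had 48.4, 48.9 and 50.0 in DTE and 371, 388 and 217 in DMSO (-2.68 ± 0.21, adjusted p = 1.6e-10, quantile -1.66). In all 3 genes the brightest DTE array lay far below the dimmest DMSO array. LINC01139 had 67.3, 73.5 and 64.2 in DTE and 419, 448 and 332 in DMSO (-2.54 ± 0.17, adjusted p = 2.2e-11, quantile -1.49). LINC02525 (-2.08 ± 0.15, quantile -1.03), LINC00520 (-1.95 ± 0.15, quantile -0.89), and LINC01004 (-1.92 ± 0.19, quantile -0.85) followed. The quantile values of these 7 genes passed the test as well, so they were also lower relative to the other genes of the same arrays.

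The rise among the 72 was that of LINC00882, with 39.3, 46.1 and 35.6 in DTE and 27.9, 29.7 and 19.9 in DMSO (0.66 ± 0.15, adjusted p = 6.5e-04, quantile 1.40). LINC01252, described without a test, had 26, 36.9 and 40.8 in DTE and 28.4, 20.2 and 23 in DMSO, and its arrays overlapped between the groups. LINC00673, also known as SLNCR1, a transcript tied to melanoma cell invasion, was among the steadiest of the 82 in deposited values. It had 914, 981 and 1036 in DTE and 948, 986 and 834 in DMSO (0.08 ± 0.13, adjusted p = 0.61, quantile 0.98). The deposited difference did not pass the test, while the quantile value did (adjusted p = 1.8e-07).

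In DTE against DMSO 2 of the 82 LINC genes rose and 63 fell, where 65.1% of all genes were called and 3.14% of the 7749 brighter ones rose and 86.7% fell. Among the 72 the counts were 1 and 58. Of the 82, 2.44% rose and 76.8% fell, against 5.62% and 77.9% of the 249 other long non-coding RNA genes. After quantile normalization 30 rose and 20 fell, where 43% of all genes were called and 26.6% of the 7749 rose and 33.5% fell. Of the 30 rises, 12 were of genes called lower in deposited values. They were LINC01000, LINC01347, LINC00265, LINC00630, LINC00467, LINC00641, LINC00910, LINC00667, LINC01547, LINC01569, LINC01023 and LINC00619. For these 12 the direction against DMSO therefore depends on the scale. The rise of LINC00882 and 20 of the falls were called in the same direction on both scales, among the 82 with those that carry no test included. LINC01252, the other gene counted as a rise, carries no test here, and its deposited arrays overlapped between DTE and DMSO. The median difference was -0.75 in deposited and 0.09 in quantile values, against -0.99 and -0.06 for the 7749 genes.

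**Figure D2:**
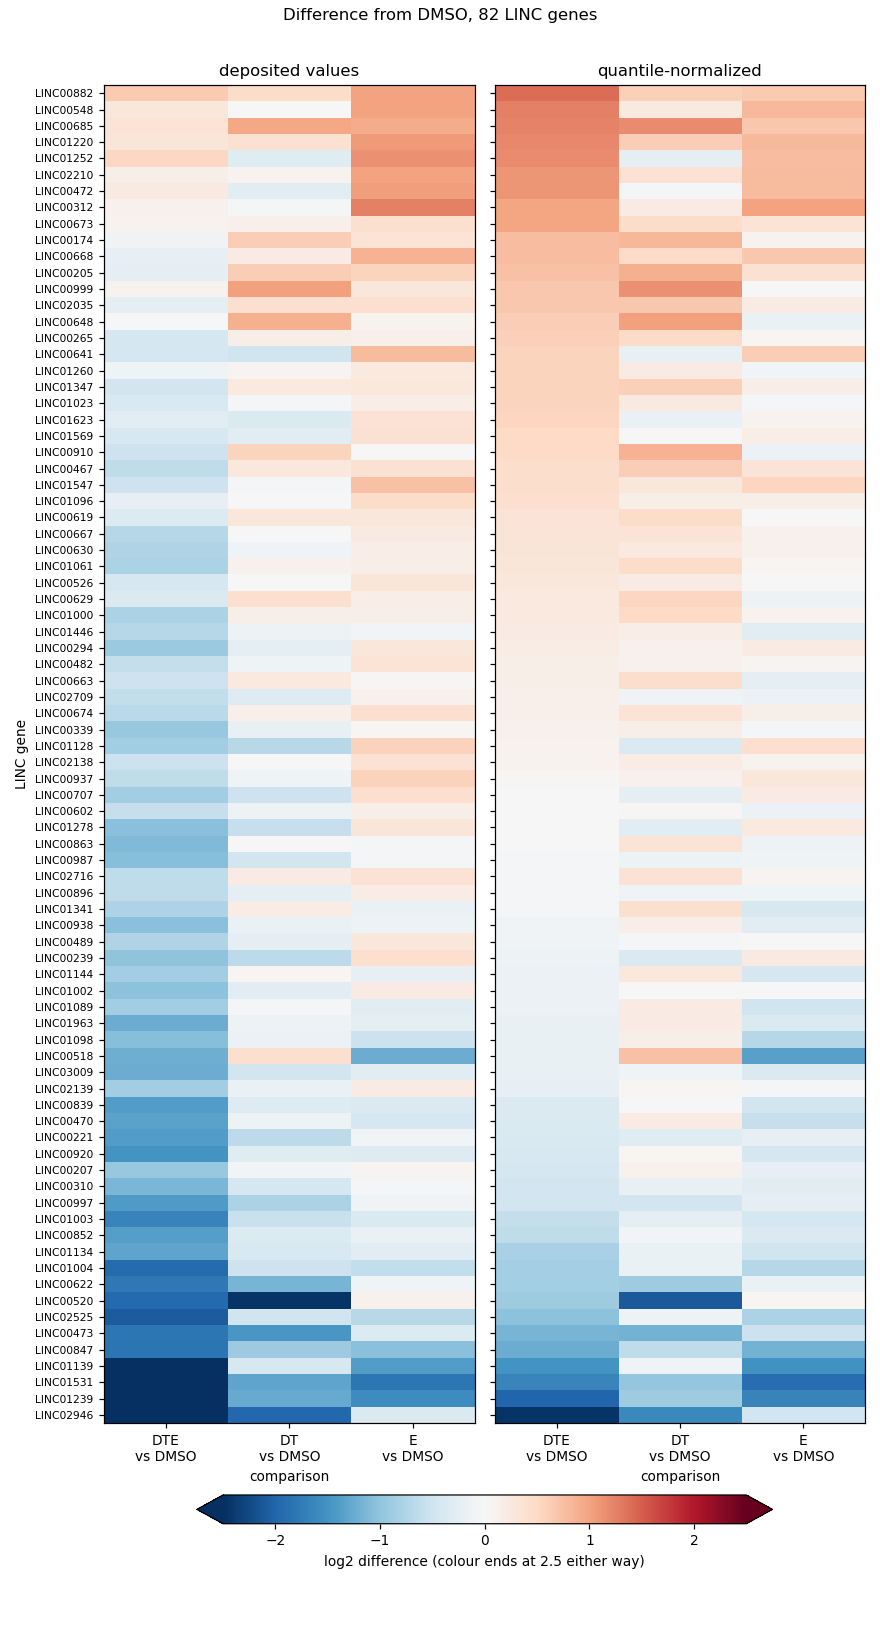
Log2 difference from DMSO of the 82 tested LINC genes (rows, ordered by the quantile-normalized DTE difference) in DTE, DT and E, in deposited values (left) and after quantile normalization (right). Blue is lower and red higher than DMSO. In deposited values the DTE column is mostly blue, with 63 falls and 2 rises, and after quantile normalization it holds 30 rises and 20 falls.

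Entinostat added to dabrafenib plus trametinib was read from DTE against DT. LINC01139 had 67.3, 73.5 and 64.2 in DTE and 302, 285 and 312 in DT, a 4.39-fold fall (-2.13 ± 0.17, adjusted p = 1.5e-09, quantile -1.41). LINC00518 had 176, 191 and 172 in DTE and 601, 537 and 523 in DT (-1.62 ± 0.16, adjusted p = 4.5e-08, quantile -0.92), without overlap. LINC01239 (-1.66 ± 0.17, quantile -1.09), LINC02525 (-1.60 ± 0.15, quantile -0.90) and LINC01004 (-1.40 ± 0.19, quantile -0.67) fell too. Among the 72 the 2 rises were those of LINC00472 (0.49 ± 0.14, quantile 1.14) and LINC00520. LINC00520 had 155, 169.7 and 169.7 in DTE and 129, 101 and 119.9 in DT (0.50 ± 0.15, adjusted p = 0.0072, quantile 1.21), so that its DTE arrays lay above its DT arrays although most genes lay below. In all 3 of the 82 rose and 62 fell, where 58.1% of all genes were called and 3.69% of the 7749 rose and 78.9% fell. Among the 72 the counts were 2 and 56. After quantile normalization 16 rose and 24 fell, where 34.4% of all genes were called and 21.4% of the 7749 rose and 26.4% fell. One gene, LINC01278, fell in deposited values (-0.46) and rose in quantile values (0.26).

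Dabrafenib plus trametinib added to entinostat was read from DTE against E. LINC02946 had 15.7, 23.2 and 14.5 in DTE and 76.7, 141 and 150.1 in E, a 6.76-fold fall (-2.76 ± 0.23, adjusted p = 1.0e-09, quantile -1.97). LINC00520 had 155, 169.7 and 169.7 in DTE and 588, 718 and 753 in E (-2.05 ± 0.15, adjusted p = 2.1e-10, quantile -0.94). LINC00473 had 20.1, 16.3 and 22.2 in DTE and 43.4, 55.9 and 63 in E (-1.46 ± 0.16, adjusted p = 5.1e-08, quantile -0.63). In each of these genes the highest DTE array lay below the lowest E array. LINC00622 (-1.69 ± 0.14, quantile -0.67) and LINC01128 (-1.45 ± 0.14, quantile -0.32) fell as well. Of the 82 genes 78 fell and 0 rose by limma's test (78 had an unadjusted p under 0.05), where 78.8% of all genes were called and 0.0903% of the 7749 rose and 98.5% fell. Among the 72 genes 71 fell and 0 rose. After quantile normalization 6 fell and 23 rose, where 20.1% of all genes were called and 17.3% of the 7749 fell and 13.8% rose, and 19 of the genes that fell in deposited values were among those 23. Of the 249 other long non-coding RNA genes, 7.63% fell and 22.9% rose in quantile values.

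The interaction asks whether the difference between DTE and DT equals that between E and DMSO. In deposited values 67 of the 82 LINC genes had a negative interaction and 0 a positive one by limma's test (70 had an unadjusted p under 0.05), where 62.7% of all genes were called and 85.4% of the 7749 were negative and 0.103% positive. Among the 72 genes 61 were negative and 0 positive. The median of the 82 was -0.78, against -0.63 for all genes and -0.79 for the 7749 brighter ones. After quantile normalization, where 4.11% of all genes were called and 2.89% of the 7749 were positive and 3.46% negative, 2 were positive and 1 was negative. These 3 are named because there were so few, after their values were seen. LINC00520 had a quantile interaction of 1.16 ± 0.12, adjusted p = 2.0e-04, against 0.40 ± 0.22 in deposited values (adjusted p = 0.11). LINC01531 had 1.22 ± 0.22, adjusted p = 0.0068, against 0.43 ± 0.29 (adjusted p = 0.20). LINC00205 had -0.53 ± 0.11, adjusted p = 0.013, and -1.40 in deposited values. In LINC00205 the DTE arrays (57.1, 63.4 and 70.1) all lay below the DT arrays (123, 107 and 113) and the E arrays (89.8, 114 and 128), as did the DMSO arrays (78.9, 78.9 and 66.2).

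**Figure D3:**
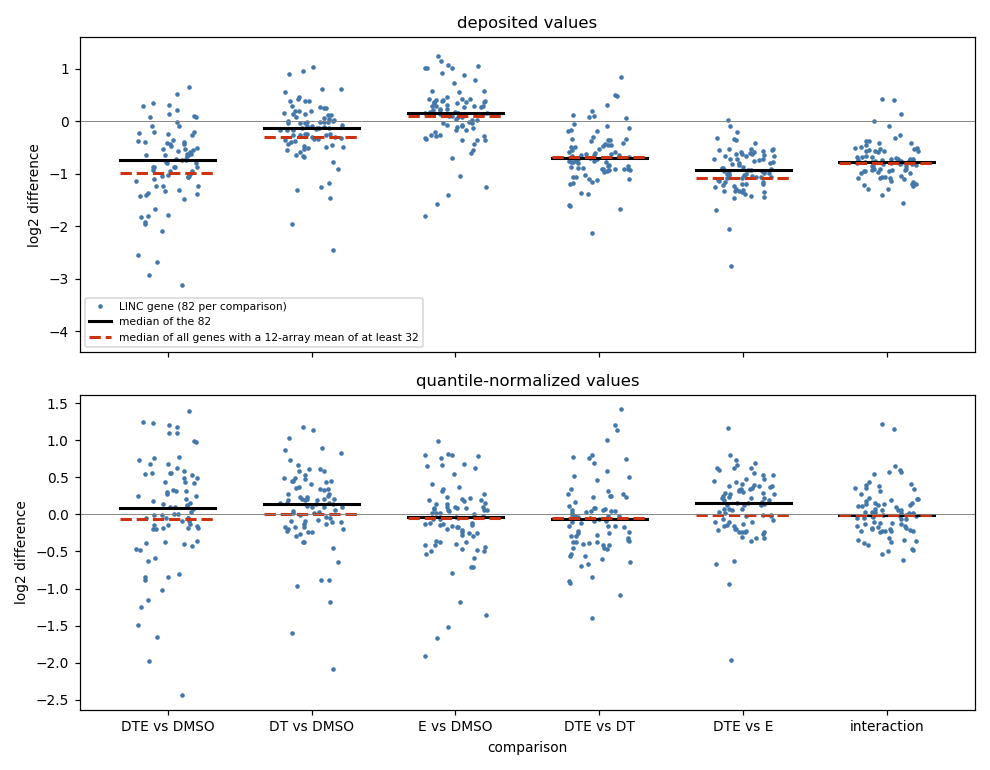
Log2 differences of the 82 tested LINC genes (points) in the 5 comparisons and the interaction, in deposited values (top) and after quantile normalization (bottom). Solid bars are medians of the 82, and dashed bars are medians of all 7749 genes with a 12-array mean of at least 32. The solid bar lies near the dashed one in each comparison, at -0.75 against -0.99 for DTE vs DMSO in deposited values.

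The remaining 18 genes reached 32 in at least 1 group mean but not in their mean over the 12 arrays. This choice by itself makes their groups unlike, so their values carry no test. LINC00632, the transcript from which the circular RNA CDR1as is made, had the widest range. It measured 31.4, 30.4 and 40.1 in DTE, 7.8, 8.83 and 8.95 in DT, 33.4, 55 and 36.8 in E and 12.2, 10.7 and 8.07 in DMSO. The DT and DMSO means were at or below the estimated background, and every array with entinostat lay above every array without it. Against that background its DTE level was at least 2.83-fold above DMSO, and its E level at least 3.42-fold. LINC01088 measured 15.3, 14.9 and 16.2 in DTE, 18.4, 13.3 and 13.3 in DT, 38.2, 48.7 and 49.3 in E and 47.7, 58.1 and 35.7 in DMSO, with both groups given dabrafenib plus trametinib below the other two. LINC00479 was likewise lower in both of these groups, with means of 14.5 ± 1.54, 17.5 ± 2.38, 39.5 ± 4.17 and 34.9 ± 3.5 in DTE, DT, E and DMSO (SD, n = 3 each). LINC00115 was lowest in DTE (11.2, 11.9 and 11.6) and highest in DMSO (48.8, 48.8 and 35). LINC00858 (42.8, 37.1 and 40.4) was highest in DT, LINC01257 (37.2, 47.4 and 44) in E, and LINC01116 had 17.8, 18.5 and 17.8 in DTE against 45, 41.1 and 33.7 in DT. The E arrays of LINC00992 read 33.5, 33.5 and 73.1, with 1 array far above the other two. Just inside the threshold lay LINC00665, LINC00926 and LINC03033, with highest means of 34.7, 34.2 and 32.6, and just outside it LINC01433, LINC01310 and LINC02398, with 31.8, 31.2 and 31.2, all in E.

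**Figure D4:**
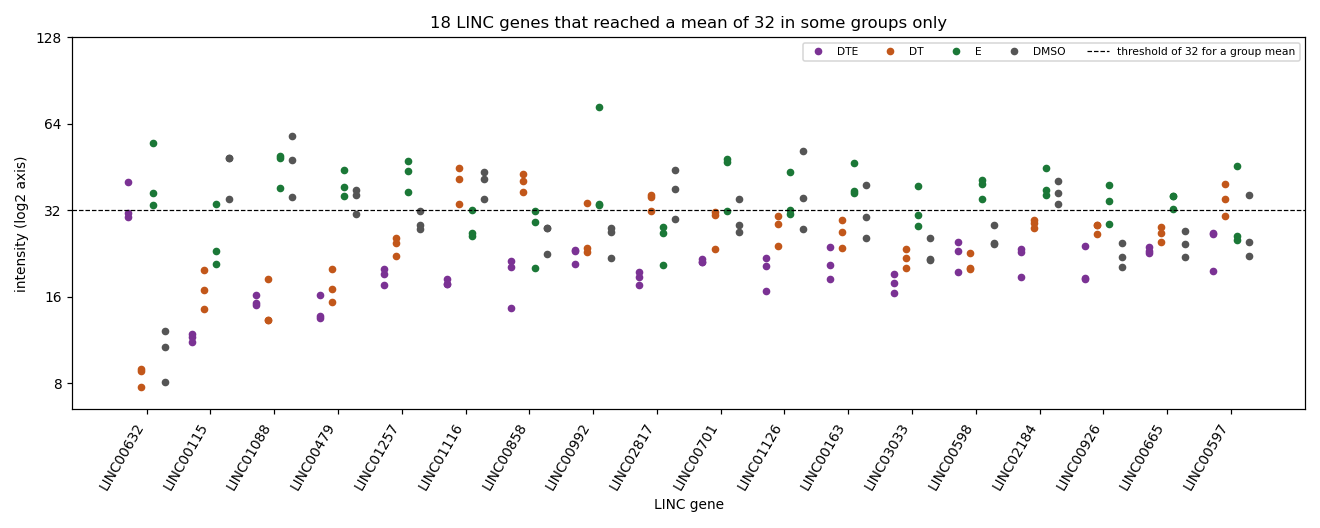
Intensity on each array (points, log2 axis) of the 18 LINC genes that reached the threshold of 32 (dashed line) through a group mean only, in DTE, DT, E and DMSO, ordered by the ratio of highest to lowest group mean. LINC00632 lay at 30.4 to 55.0 with entinostat and at 7.8 to 12.2 without it.

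Among all 100 genes the highest group mean was in DTE for 0, in DT for 17, in E for 54 and in DMSO for 29, and the lowest mean was in DTE for 84. The E arrays had the highest and the DTE arrays the lowest overall level, as given above. The mean was at least 32 in all 4 groups for 51 genes, in 3 groups for 23, in 2 for 13 and in 1 for 13. All 100 are annotated as long non-coding RNA in RefSeq, and they lie on 22 chromosomes, with 11 on chromosome 1 as the largest number. The 5 steadiest genes of the 82 by the ratio of deposited group means were LINC01260, LINC00673, LINC01023, LINC00265 and LINC00619, with highest over lowest means of 1.30 to 1.56. Steadiness depends on the scale. In quantile values the group means of LINC00673 ran from 746 in DMSO to 1468 in DTE, and those of LINC00265 from 280 to 420. LINC00467, which MYCN represses in neuroblastoma cells, measured 139.6, 136 and 151 in DTE, 257, 268 and 276 in DT, 264, 284 and 314 in E and 226, 262 and 183 in DMSO.

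Other long non-coding RNAs, without a LINC number, were listed for comparison, and 30 of 53 were measured. Of these, 20 had a 12-array mean of at least 32, but the counts here are over all 30. They are therefore not directly comparable with the counts of the tested LINC genes. Dimmer genes among the deposited rises were HOTAIR and MIR22HG in DT, and MEG3, MIR31HG and MIR210HG in E. Dimmer genes among the deposited falls were MIR100HG and SNHG15 in DTE. In DT against DMSO 5 rose and 10 fell in deposited values, and 8 rose and 7 fell in quantile values. Of all genes 27.8% and 29.6% were called on these scales. CASC15, a transcript of a neuroblastoma susceptibility locus, had 249 in DT and 64.4 in DMSO (1.95 ± 0.15, quantile 2.18), and BANCR, named for its induction by BRAF, rose too (0.87 ± 0.16, quantile 1.19). SNHG17 (-1.02 ± 0.16, quantile -0.66), DANCR (-0.83 ± 0.15, quantile -0.49), SNHG20 (-0.69 ± 0.13, quantile -0.32) and LINC-PINT (-0.77 ± 0.14, quantile -0.44) fell. In E against DMSO 6 rose and 3 fell in deposited values, and 5 rose and 10 fell in quantile values, where 25.6% and 31.5% of all genes were called. MALAT1, an abundant nuclear RNA, had 2460 in E and 1024 in DMSO (1.31 ± 0.18, quantile 1.26), and BANCR (1.29 ± 0.16, quantile 1.21) and the p53-induced LINC-PINT (1.23 ± 0.14, quantile 1.17) rose likewise. In DTE against DMSO 2 rose and 20 fell, and after quantile normalization 6 rose and 10 fell, where 65.1% and 43% of all genes were called. The small nucleolar RNA host genes SNHG20 (-1.66 ± 0.13, quantile -0.60), SNHG8 (-1.58 ± 0.14, quantile -0.59) and SNHG17 (-1.68 ± 0.16, quantile -0.68) were among those that fell.

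The neighbouring protein-coding genes were taken from the order of genes in RefSeq, 1 on each side. Of 199 neighbours 107 were measured, for 76 of the 100 LINC genes. In 60 pairs both genes had a 12-array mean of at least 32 and the LINC gene was among the 82. In quantile values the differences of LINC gene and neighbour had the same sign in 42 of 60 pairs in DTE against DMSO, in 42 of 60 in DT and in 33 of 60 in E. Spearman's rho across the pairs was 0.41, 0.27 and 0.32, as a description. No such count or rho was taken for genes that are not neighbours, so whether these values are particular to neighbours was not tested. Of the 100 LINC genes 16 had a neighbour whose annotated span overlaps theirs, and pairs of this kind are among the 60. The pairs share their arrays, a LINC gene can stand in more than 1 pair, and pairs are not independent replicates. The pairs named next were chosen after their values were seen. LINC00472 and OGFRL1 rose together in E against DMSO, by 1.05 and 0.89 (quantile 0.78 and 0.82), and LINC00548 and FOXO1, a transcription factor of insulin signalling, by 1.01 and 0.96 (quantile 0.81 and 0.76). LINC00312 and LMCD1, whose annotated spans overlap, measured 1.25 and 0.92 (quantile 1.00 and 0.86), and whether their probe sets read the same transcripts was not tested. LINC00685 and GTPBP6, which start within 1 kb of each other on opposite strands, went apart, with 0.93 and -0.56 in E (quantile 0.67 and -0.68) and 0.96 and -0.72 in DT (quantile 1.18 and -0.37). LINC02946 differed by -1.96 in DT against DMSO, and its neighbours FHL2 and NCK2 by -0.76 and -0.95 (quantile -1.60, -0.49 and -0.57). In E against DMSO the 3 differed by -0.36, 0.78 and -0.27 (quantile -0.47, 0.55 and -0.37), so FHL2 went the other way. Their quantile values in DTE against DMSO were -2.44, 0.09 and -0.74.

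**Figure D5:**
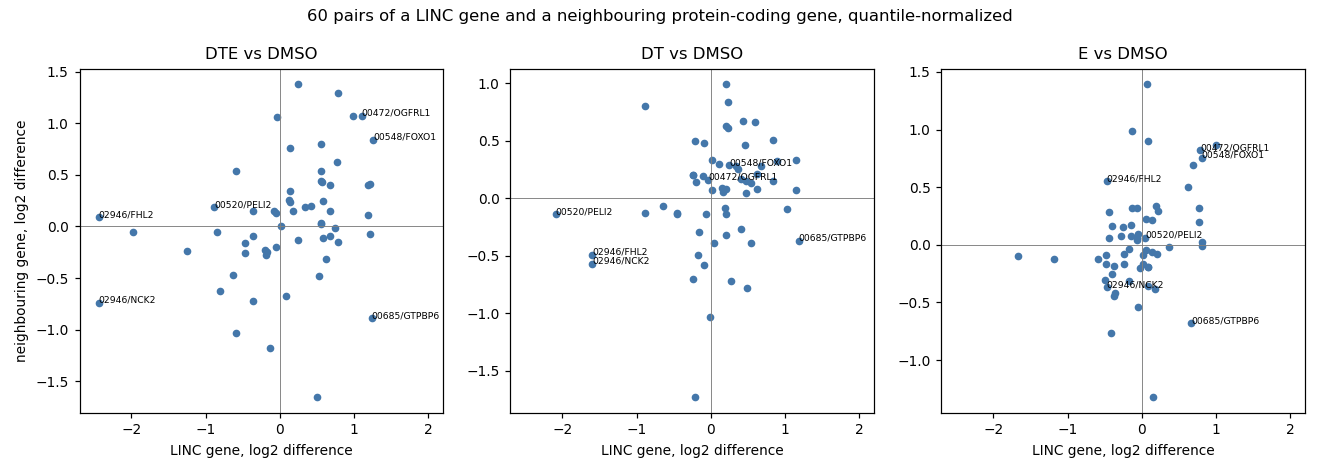
Log2 difference after quantile normalization of a LINC gene (x axis) and of a neighbouring protein-coding gene (y axis) in 60 pairs, for DTE, DT and E against DMSO. A few pairs are labelled without the letters LINC. The pair of LINC00472 and OGFRL1 lies in the upper right for DTE and E, at 0.78 and 0.82 in E, and the pair of LINC00685 and GTPBP6 lies in the lower right in each panel.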

How the data were processed

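The authors deposited linear intensities per probe set for 12 Affymetrix arrays. The submitters' processing notes name RMA and Transcriptome Analysis Console without versions, and no source used here states the scaling between arrays. Per the labels, an ERCC spike-in mix went in ahead of extraction. The platform annotation, updated through RefSeq, gave a single gene for 14750 of 29398 probe sets, and the one with the highest mean over 12 arrays stood for each gene.

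Log2 of the deposited intensity was fitted with limma's lmFit and eBayes (limma 3.58.1 under R 4.3.3), with 1 mean per group over all 12 arrays, no filter and no pseudocount. P-values were adjusted by Benjamini-Hochberg over 14582 genes within each comparison, with a threshold of 0.05. The quantile values come from the same fit after quantile normalization of all probe sets. Background was set on each array at percentile 95 among its dimmest 25% of genes (10.3 to 15.3), and a lower bound on a fold takes that level for the dimmer group. The procedure was tested on simulated data. Genes whose 3 lower groups average under 32 carry no test in the text, a rule added after seeing the data. Genes were named by rank of their difference among the 82 (8 in each direction against DMSO, 5 otherwise), by intensity or steadiness, or from a list. The LINC genes, lists and rules were chosen with earlier results of these data known. No 2 arrays were identical, and the number of arrays limits the precision. Alternatives were other centrings, a variance trend, filters, the mean of probe sets, fewer samples and a replicate block.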

Additional observations from a re-analysis of the deposited data

Results flagged for a closer look

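In deposited values the effect of entinostat differed with and without dabrafenib plus trametinib for most genes. Of the 7749 genes with a 12-array mean of at least 32, 85.4% had a negative interaction by limma's test, with a median of -0.79. After quantile normalization 3.46% of them had a negative and 2.89% a positive one, with a median of -0.01, so the difference for most genes depends on the scale. The 5 LINC genes below are those with the largest negative interaction among the 82, not a set apart from other genes. LINC00685 had an interaction of -1.55 on the log2 scale (quantile -0.62, adjusted p = 0.14), LINC00205 of -1.40 (quantile -0.53, adjusted p = 0.013), LINC00467 of -1.29 (quantile -0.49, adjusted p = 0.053), LINC00668 of -1.28 (quantile -0.41, adjusted p = 0.32) and LINC00999, which passes the filter through its DT arrays and carries no test here, of -1.24 (quantile -0.48). Of the 5, LINC00205 also passed the test in quantile values.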

How the results depend on the processing

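The scale between arrays had the widest effect on the counts among the 82 LINC genes. With quantile normalization, median centring and centring on the brighter genes, the DTE vs DMSO rises numbered 30, 20 and 36 and the falls 20, 32 and 20. The DT vs DMSO rises numbered 25, 22 and 29, and the falls 12 with quantile normalization and 12 with centring on the brighter genes. The E vs DMSO falls numbered 21, 27 and 21, and the rises 13 with median centring. The DTE vs DT rises numbered 16, 12 and 19 and the falls 24, 34 and 19. The DTE vs E rises numbered 23, 18 and 32 and the falls 6, 17 and 8. Positive interactions numbered 2, 5 and 7 and negative ones 1, 3 and 3. With a 12-array mean of at least 64, which fewer genes reach, the rises were 0 and the falls 34 in DTE vs DMSO, the rises 5 in DT vs DMSO and 12 in E vs DMSO, the rises 1 and the falls 35 in DTE vs DT, the falls 42 in DTE vs E, and the negative interactions 38. With only the 72 genes whose 3 lower groups average at least 32, an alternative chosen after seeing the data, the rises in DTE vs DMSO numbered 1, and every other count stayed within 1.5 times.

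Leaving out 1 array at a time gave 1 to 3 rises and 55 to 64 falls in DTE vs DMSO, 4 to 10 and 13 to 25 in DT vs DMSO, 13 to 26 and 6 to 14 in E vs DMSO, 3 to 4 and 56 to 64 in DTE vs DT, and 0 to 0 and 74 to 79 in DTE vs E, with 0 to 2 positive and 56 to 73 negative interactions. The rises in DTE vs DMSO numbered 1 without DTE replicate 3, and positive interactions 2 without DMSO replicate 3. Same-numbered arrays did not deviate together (r of -0.22 to 0.13, with 2 of 18 pairs over 0.1), so the numbers were not taken as pairs. A replicate block gave 2 rises and 61 falls in DTE vs DMSO, 7 and 17 in DT vs DMSO, 17 and 9 in E vs DMSO, 3 and 61 in DTE vs DT, 0 and 78 in DTE vs E, and 0 positive and 65 negative interactions, and LINC02035 in DT vs DMSO was no longer called (0.42, adjusted p = 0.056). Of 60 results for named genes none changed direction under the scalings, variance model, filter, probe-set mean, block or single arrays left out. These 60 were picked as the largest called differences in the deposited values, so a kept direction does not extend to the other genes. They include genes that carry no test in the text. Among the 82, 12 falls in DTE vs DMSO and 19 in DTE vs E were called rises in quantile values. The interaction of LINC00668 was also not called with median centring (adjusted p = 0.079) or centring on the brighter genes (adjusted p = 0.13). The causes of these changes were not tested. Signal over background limits LINC00632, whose DT and DMSO means are bounds.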

Other observations

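Most LINC genes on these arrays stayed dim. At or below the estimated background lay 57.0% of the 453 in DTE, 52.8% in DT, 56.1% in E and 53.2% in DMSO. That background is a rank cut, percentile 95 among the dimmest 25% of genes on each array, and not a measured limit of detection. By this definition fewer than 25% of all genes on an array lie below it. Of the 453, 22.1% reached a group mean of 32, against 67.0% of the protein-coding genes.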
